A study of Mus musculus with 26 samples.

Results

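The circadian clock genes are 10 genes of the molecular clock, Per1, Per2, Per3, Dbp, Tef, Nr1d1, Nr1d2, Cry1, Cry2 and Clock, measured in mouse knee joints during the development of osteoarthritis. They were taken by symbol, from the probe sets annotated to 1 of these symbols alone, which gave 24 of the 45101 probe sets on the array. These are 10 of the 18194 genes with a probe set of their own. Values of a gene are those of its brightest probe set, the one with the highest mean log2 signal over the 26 arrays. Per1, Nr1d1, Cry1 and Cry2 have 1 probe set each. Further probe sets of the other genes are described in the paragraphs on these genes.

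The joints came from male C57BL/6 mice that were 12 weeks of age at surgery. In the DMM groups, osteoarthritis was induced by surgical destabilization of the medial meniscus, in which the medial meniscotibial ligament is transected. The sham groups had a control operation, and the time 0 group was not operated. Joints were taken at time 0 (12 weeks of age) and, after surgery, at week 2 (14 weeks of age), week 4 (16), week 8 (20) and week 16 (28). Each array held RNA pooled from 3 randomly chosen mice, and there were 3 pools in each group except DMM at 2 weeks, where 1 pool did not have intact RNA and 2 pools were measured. The tissue was the medial compartment of the joint with cartilage, subchondral bone, meniscus, and joint capsule with synovium. It is a mixture of cell types, in which fewer cells of a type and less RNA per cell cannot be told apart. The pool is the unit of replication, and the hour of the day at which joints were collected is not given in the labels or the methods used here.

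The clock is a feedback loop that runs in nearly every cell with a period of about a day. CLOCK and its partner ARNTL (also called BMAL1) bind E-box elements and switch on the Per and Cry genes, whose proteins then repress CLOCK and ARNTL. The same pair switches on Nr1d1 and Nr1d2, nuclear receptors that repress Arntl and its relative Npas2 at response elements shared with the ROR receptors. It also switches on Dbp, which together with the related factors Tef and Hlf acts on D-box elements, where Nfil3 opposes them. In peripheral tissues the E-box driven genes Dbp, Nr1d1, Nr1d2, Tef and the Per genes peak within some hours of each other, and Arntl and Npas2 peak at about the opposite time of day. Cartilage and other joint tissues are known to hold such clocks. The level of such a gene in a sample thus depends on the hour at which the sample is taken.

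The sequences below show the elements that this wiring refers to, in the promoters of genes whose values are described next. Promoter windows of 250 bases before a gene's start were searched, and 9 of the 10 genes had at least 1 window in the RefSeq table for GRCm38.p6. The E-box CACGTG, a palindrome, stood in windows of Per1, Tef and Cry1 and in 6.02% of all 32851 windows. The D-box, searched as TTATGTAA, TTACATAA or TTACGTAA, stood in that of Per3 and in 0.931% of all windows. The E-box variant AACGTG or CACGTT was found for Cry1, Cry2 and Nr1d1 (3.85% of all windows). The letters AGGTCA or TGACCT, the core of the element bound by NR1D and ROR receptors, were found for Clock, Nr1d2 and Per1 (14.0% of all windows). Each search covered both strands, and in the windows of the clock genes no match overlaps another. Below, the E-boxes of Per1, Tef and Cry1 and the 2 D-boxes of Per3 are in capitals, 5′ to 3′ on the strand of the gene. They lie 166, 127 and 60 bases before the start for Per1, Tef and Cry1, and 205 and 158 bases before it for Per3. Per1 and Tef have 2 listed starts each. The second window of Tef also holds an E-box, 138 bases before its start, and that of Per1 holds none. For the Per1 start shown, which exon or intron of other transcripts it falls in was not established.
Per1, GRCm38.p6 chr11:69098748-69098823, plus strand: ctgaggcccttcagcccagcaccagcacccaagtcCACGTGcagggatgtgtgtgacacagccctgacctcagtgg
Tef, GRCm38.p6 chr15:81802511-81802586, plus strand: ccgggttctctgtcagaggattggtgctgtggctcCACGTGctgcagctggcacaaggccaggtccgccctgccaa
Cry1, GRCm38.p6 chr10:85185074-85185149, minus strand: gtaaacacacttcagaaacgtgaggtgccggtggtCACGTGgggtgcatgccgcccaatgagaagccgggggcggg
Per3, GRCm38.p6 chr4:151044781-151044905, minus strand: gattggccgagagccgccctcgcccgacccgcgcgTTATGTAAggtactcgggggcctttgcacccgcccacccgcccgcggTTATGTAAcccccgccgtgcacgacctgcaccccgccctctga
A match of letters is a description of the window and not a measured binding site.

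All values below are log2 signals as the authors normalized them, so that a difference of 1 is a 2.0-fold difference in signal, and signals of different genes are not set against each other. The array medians lay between 7.90 and 7.95. Group levels are given as mean ± SD over pools. Differences are given ± SE from a limma fit over all 26 arrays, and a gene is called different at an adjusted p under 0.05 over the 22489 probe sets tested. Of the 10 genes, 9 passed the filter on brightness (mean log2 signal above 7.93) and were tested. Cry2, with a mean of 7.65, was not. The mixture of tissue varied between pools. The mean of 10 skeletal muscle markers ranged from 9.65 to 13.34, and that of 9 chondrocyte markers from 9.73 to 12.33.

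Dbp, the clock's main output factor, varied most. At time 0 its 3 pools read 9.23, 9.91 and 10.56. The sham pools read 10.89, 10.99 and 11.30 at 2 weeks, 11.05, 10.78 and 10.54 at 4 weeks, 10.91, 10.08 and 8.92 at 8 weeks, and 9.93, 9.54 and 9.51 at 16 weeks. The DMM pools read 11.50 and 11.33 at 2 weeks, 11.00, 10.43 and 10.61 at 4 weeks, 10.50, 10.87 and 9.87 at 8 weeks, and 10.90, 8.67 and 10.52 at 16 weeks. Pools of one group were thus far apart at time 0, in sham joints at 8 weeks and in DMM joints at 16 weeks, while sham joints at 2 and 16 weeks were close together. From the lowest pool (DMM at 16 weeks, replicate 2) to the highest (DMM at 2 weeks, replicate 2) the signal of Dbp spanned 2.84 on the log2 scale, or 7.14-fold. The second probe set of Dbp, which is dimmer, spanned 2.18 and followed the first with r = 0.98 over the 26 pools.

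**Figure D1:**
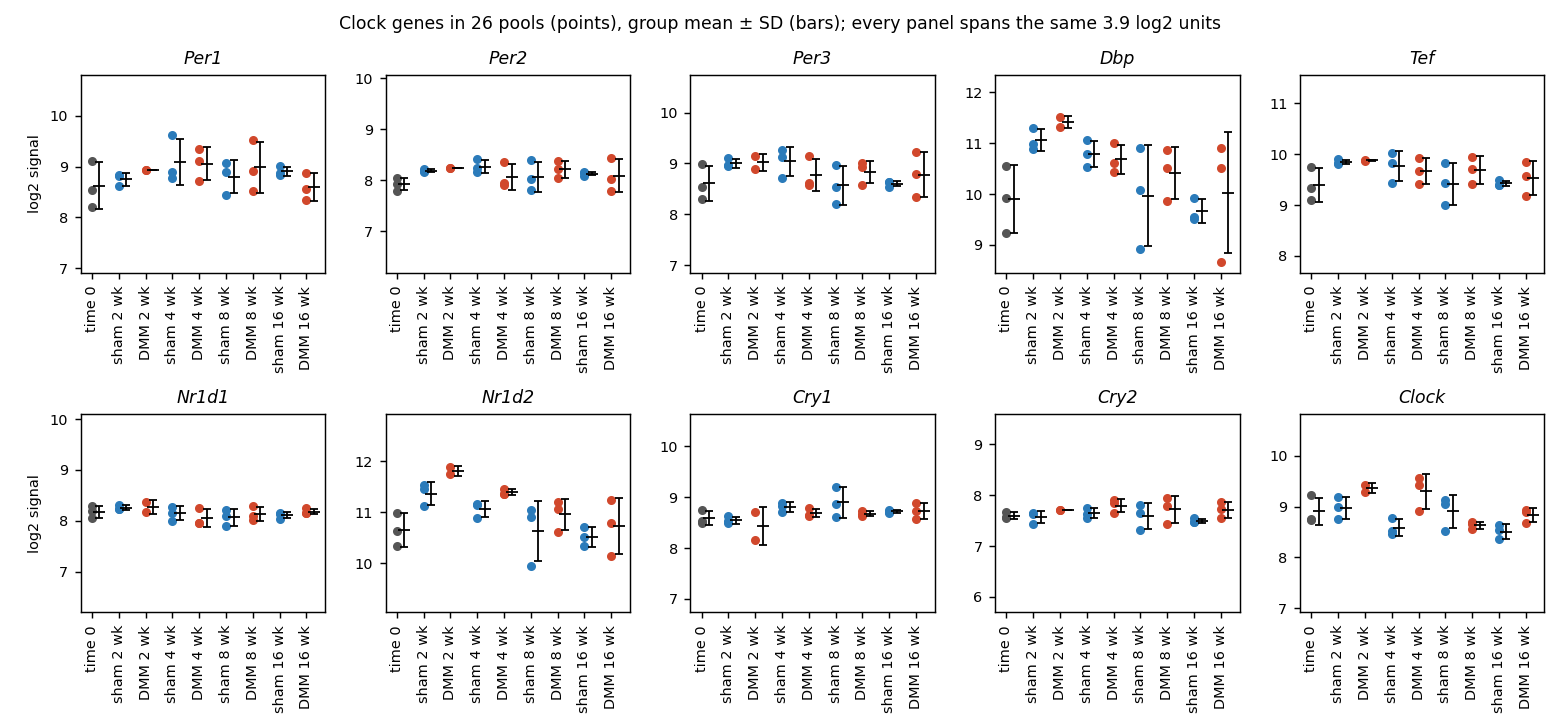
Log2 signal of the brightest probe set of the 10 clock genes (vertical axes, each spanning the same number of log2 units) in every pool, by group (horizontal axes; grey, time 0; blue, sham; red, DMM). Bars are group means ± SD. Dbp and Nr1d2 spread widely within time 0, sham at 8 weeks and DMM at 16 weeks, Clock stands high in DMM joints at 2 and 4 weeks, and Nr1d1 stays between 7.89 and 8.37 in all pools.

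Nr1d2, the nuclear receptor REV-ERBβ that represses Arntl, showed the same shape. Its pools read 10.34, 10.62 and 10.99 at time 0. In sham joints they read 11.11, 11.45 and 11.53 at 2 weeks, 11.14, 11.16 and 10.89 at 4 weeks, 11.04, 10.91 and 9.95 at 8 weeks, and 10.71, 10.51 and 10.33 at 16 weeks. In DMM joints they read 11.74 and 11.88 at 2 weeks, 11.36, 11.36 and 11.46 at 4 weeks, 11.07, 11.19 and 10.60 at 8 weeks, and 11.24, 10.14 and 10.79 at 16 weeks. The 2 DMM pools at 2 weeks were the highest of all 26, and replicate 3 of sham at 8 weeks and replicate 2 of DMM at 16 weeks were the lowest, as they were for Dbp. The range over all pools was 1.93, or 3.81-fold. The second probe set of Nr1d2, far dimmer with a mean of 6.36, spanned 0.67 and followed the first with r = 0.75.

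Tef, a D-box factor of the same family as Dbp, read 9.10, 9.34 and 9.74 at time 0 and ran from 9.00 (sham at 8 weeks, replicate 3) to 10.02 (sham at 4 weeks, replicate 1). Per3, a period gene whose promoter holds the pair of D-boxes printed above, read 8.30, 8.53 and 8.99 at time 0 and had its lowest and highest value, 8.20 and 9.27, in the same pools as Tef. Both genes rose and fell with Dbp inside groups. In 8 of the 9 groups the pool with the most Dbp also had the most Per3, the most Per2 and the most Tef, and in 6 of 9 it had the most Nr1d2. In sham joints at 8 weeks, for example, Dbp, Nr1d2, Tef, Per3 and Per2 were all highest in replicate 1 and lowest in replicate 3. The dimmer probe sets of Tef, with means of 8.22 and 7.27, followed its brightest with r = 0.67 and 0.62. Of the 6 probe sets of Per3, those with means of 7.63 and 6.81 followed the brightest with r of only 0.23 and 0.16. The others followed it with r of 0.89 to 0.94.

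Per2, a repressor of CLOCK and ARNTL, moved less on its brightest probe set, from 7.79 to 8.43, a range of 0.64. The second probe set of Per2, with a mean of 7.91, ran from 7.41 to 8.45, a wider range of 1.03. The third, with a mean of 6.81, spanned 0.64. They followed the brightest with r = 0.78 and 0.77. Per1, which encodes a repressor and is also known to respond quickly to stress hormones, ranged from 8.20 (time 0, replicate 2) to 9.61 (sham at 4 weeks, replicate 1), or 2.66-fold, and its extremes lay in other pools than those of Dbp. Nr1d1, the nuclear receptor REV-ERBα and usually one of the strongest rhythmic genes of a tissue, was nearly flat on its only probe set, with a range of 0.48. Of the cryptochromes, which repress CLOCK and ARNTL together with the PER proteins, Cry1 ran from 8.17 to 9.21 and was highest in replicate 3 of sham at 8 weeks, where Dbp was second lowest. Cry2 lay between 7.32 and 7.95.

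Clock, the gene of the activator, followed another course. Its pools read 9.22, 8.74 and 8.76 at time 0. In sham joints they read 8.75, 9.00 and 9.18 at 2 weeks, 8.52, 8.46 and 8.78 at 4 weeks, 8.53, 9.06 and 9.12 at 8 weeks, and 8.35, 8.64 and 8.53 at 16 weeks. In DMM joints they read 9.43 and 9.29 at 2 weeks, 8.91, 9.55 and 9.43 at 4 weeks, 8.55, 8.66 and 8.69 at 8 weeks, and 8.68, 8.89 and 8.94 at 16 weeks. DMM pools at 2 and 4 weeks were high apart from replicate 1 at 4 weeks, and the DMM pools at 8 weeks were low and close together. Its 3 other probe sets followed the first with r between 0.82 and 0.86.

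Ordered by group mean, Dbp was highest in DMM joints at 2 weeks (11.41 ± 0.13, n = 2), followed by sham at 2 weeks (11.06 ± 0.21), sham at 4 weeks (10.79 ± 0.26), DMM at 4 weeks (10.68 ± 0.29), DMM at 8 weeks (10.41 ± 0.51), DMM at 16 weeks (10.03 ± 1.20), sham at 8 weeks (9.97 ± 1.00), time 0 (9.90 ± 0.66) and sham at 16 weeks (9.66 ± 0.23). No gap between neighbours in this order was larger than its error, the largest being 0.38 with a 95% interval from -0.70 to 1.47. Nr1d2 ran from 11.81 ± 0.10 in DMM at 2 weeks, through 11.39 ± 0.05 in DMM at 4 weeks and 11.36 ± 0.22 in sham at 2 weeks, to 10.52 ± 0.19 in sham at 16 weeks. Clock ran from 9.36 ± 0.10 in DMM at 2 weeks and 9.30 ± 0.34 in DMM at 4 weeks to 8.51 ± 0.14 in sham at 16 weeks. For each of the 10 genes, the interval of all 8 gaps between neighbouring groups included 0. The groups were sorted by these same means, so gaps between neighbours are small by construction. They do not show that groups farther apart in the order are alike, which is tested below.

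The spread between pools of a group was large for these genes compared with the array as a whole. The residual SD of Dbp was 0.630, which placed it at the 99.6th percentile of the 22489 probe sets tested, whose median was 0.116. Per1 (0.341) and Nr1d2 (0.339) lay at the 97.1st and 97.0th percentiles, Per3 at the 95.1st, Tef at the 93.9th and Clock at the 89.4th. Per2 (84.4) and Cry1 (76.5) were closer to the rest of the array, and Nr1d1, at 56.5, was near its middle. For Dbp, 47.7% of the variance over the 26 pools lay within groups, and for Per1 72.0%. This share was lower for Nr1d2 (33.4%) and Clock (31.0%). It was 53.7% for Cry1, 69.9% for Per2, and between these for Per3, Tef, Nr1d1 and Cry2. With 26 pools in 9 groups, most of the variance lies within groups even where groups do not differ. These shares alone thus do not show a large spread. Each pool already averages 3 mice.

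**Figure D2:**
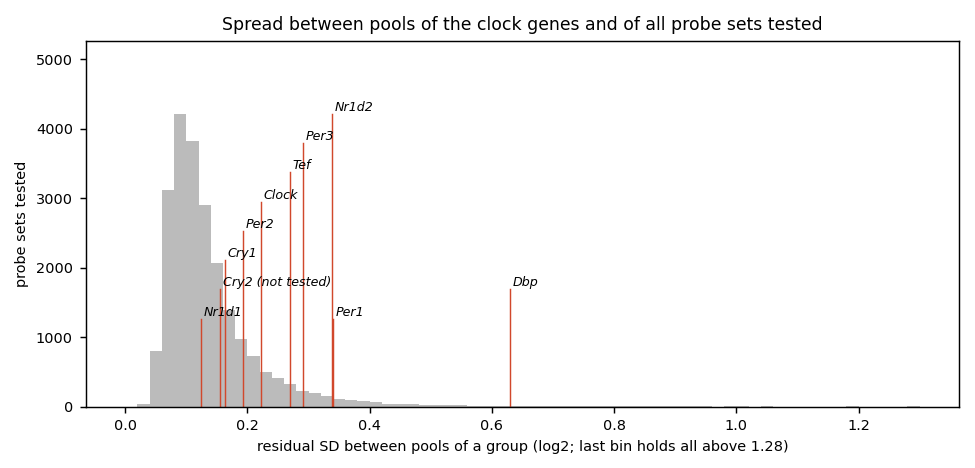
Histogram of the residual SD between pools of a group (horizontal axis, log2 units) over the 22489 probe sets tested (vertical axis, number of probe sets), with red lines at the clock genes; line heights are for legibility. Dbp, at 0.630, lies far to the right of the median of 0.116, and Nr1d1 lies in the bulk of the distribution.

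Whether the genes moved together from pool to pool was tested by correlation with Dbp over the 26 pools, for 10 relations, with permutation p-values adjusted over these 10. Nr1d2 followed Dbp with r = 0.93 and rho = 0.89, and Tef with r = 0.92 and rho = 0.91 (adjusted permutation p = 3.33e-05 for r and 2.5e-05 for rho in both, from the smallest p of 1e-05 that the permutations can give). Per3 followed with r = 0.88 and rho = 0.86 (the same adjusted p) and Per2 with r = 0.75 and rho = 0.76 (adjusted permutation p = 7.5e-05 and 2.5e-05). Taken as deviations from group means, which removes all differences between groups, r was 0.92 for Nr1d2, 0.90 for Tef, 0.90 for Per3 and 0.87 for Per2, with adjusted permutation p of at most 0.000425 for r and 0.00145 for rho. Without the 2 pools farthest from the median of Dbp (DMM at 16 weeks replicate 2 and sham at 8 weeks replicate 3), r was 0.91, 0.90, 0.85 and 0.64. These 4 relations therefore held within groups and without the extreme pools.

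The other genes followed Dbp less or not at all. Cry2 had r = 0.52 and rho = 0.41 (adjusted permutation p = 0.0146 and 0.0538), Nr1d1 r = 0.42 and rho = 0.45 (0.0456 and 0.0459), and Per1 r = 0.41 and rho = 0.40 (0.0456 and 0.0538). Without the 2 farthest pools these fell to 0.41, 0.34 and 0.21, so that the relation of Per1 in particular rested on them. Within groups, r was 0.63 for Cry2 (adjusted permutation p = 0.0355; rho = 0.40, adjusted permutation p = 0.155), 0.37 for Nr1d1 (0.116; rho = 0.34, 0.173) and 0.43 for Per1 (0.106; rho = 0.49, 0.0761). With 1 pool left out, the relation of Per1 passed an unadjusted permutation p of 0.05 in 21 of 26 cases, and not without sham at 4 weeks replicate 1, sham at 8 weeks replicate 3, DMM at 4 weeks replicate 1, DMM at 8 weeks replicate 3 or DMM at 16 weeks replicate 2 (lowest r = 0.31). That of Nr1d1 passed in 22 of 26, and not without sham at 2 weeks replicate 2, sham at 8 weeks replicate 3, sham at 16 weeks replicate 3 or DMM at 2 weeks replicate 3 (lowest r = 0.30). Cry1 had r = -0.34 and rho = -0.26 (adjusted permutation p = 0.102 and 0.228).

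The genes that peak at the opposite time differed in how they stood to Dbp. Arntl, the partner of Clock, had r = -0.46 and rho = -0.43 with Dbp (adjusted permutation p = 0.0311 and 0.0483), -0.51 without the 2 farthest pools, and -0.52 within groups (adjusted permutation p = 0.106). This relation no longer passed an unadjusted p of 0.05 without time 0 replicate 1 (r = -0.38). Clock itself gave little relation over all pools (r = 0.11, rho = 0.11, adjusted permutation p = 0.589 and 0.594) and negative within groups (r = -0.54 and rho = -0.53, adjusted permutation p = 0.0355 and 0.0449). Npas2, a relative of Clock that can replace it as the partner of ARNTL, was too dim to be tested. In 7 of 9 groups the pool with the most Dbp had the least Npas2, a count made after the values were seen. In sham joints at 8 weeks Npas2 read 6.33, 7.30 and 7.58 where Dbp read 10.91, 10.08 and 8.92, and in DMM joints at 16 weeks it read 6.36, 7.61 and 6.65 where Dbp read 10.90, 8.67 and 10.52. Between groups this did not hold: the pool with the most Dbp of all (DMM at 2 weeks replicate 2, 11.50) also had the most Npas2 (7.96), and sham joints at 16 weeks were low in both (Npas2 6.63 ± 0.18). The r of Npas2 and Dbp was -0.25 over the 26 pools and -0.84 within groups, given as a description with no test. Nfil3, the opponent of Dbp at D-boxes, was highest of all pools (9.18) in replicate 3 of sham at 8 weeks.

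**Figure D3:**
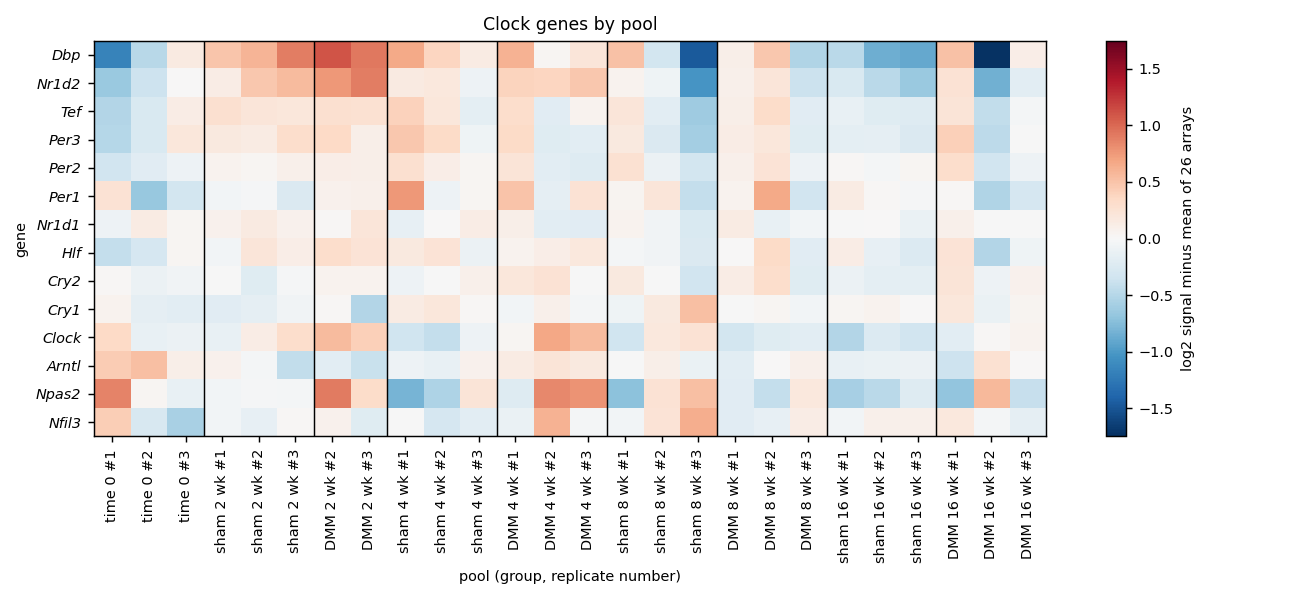
Log2 signal minus the mean of the 26 arrays (colour) of the 10 clock genes and of Hlf, Arntl, Npas2 and Nfil3 (rows) in each pool (columns, grouped by condition). The columns sham 8 wk #3 and DMM 16 wk #2 are blue for Dbp, Nr1d2, Tef, Per3 and Per2 and red for Npas2, while sham 16 wk #2 is below the mean in all 6.

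**Figure D4:**
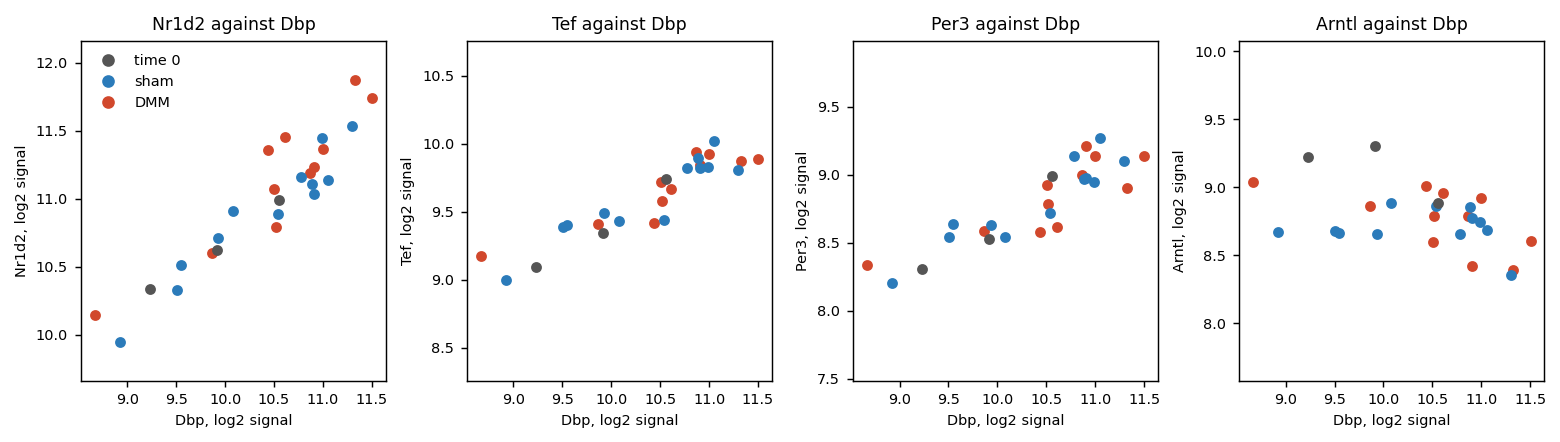
Log2 signal of Nr1d2, Tef, Per3 and Arntl (vertical axes) against that of Dbp (horizontal axes) in the 26 pools, coloured by surgery. Pools of all 3 kinds lie along 1 rising band for Nr1d2, Tef and Per3 (r = 0.93, 0.92 and 0.88), and Arntl falls with r = -0.46.

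The genes most like Dbp over the 26 pools, among the 11510 other genes tested, held several clock genes. By r, Nr1d2 was in place 1, Tef in place 2, Per3 in place 4 and Hlf, the remaining D-box activator of the family, in place 6 with r = 0.85. Between and after them came Tspan4, a tetraspanin (r = 0.90), Cys1, which encodes cystin of the primary cilium (0.87), the transcription factor Ebf1 (0.81) and Lbh, a transcription cofactor of limb and heart (0.80). These 8, of which 3 are among the 10 clock genes, were the genes with r of at least 0.8. The lowest were Lman2l (-0.82), Elavl1 (-0.79), Iqgap2 (-0.77), Spidr (-0.77) and Dock8 (-0.76). Within groups r was 0.87 for Tspan4, 0.81 for Cys1 and 0.81 for Hlf, and -0.64 for both Lman2l and Elavl1. Per2 was in place 24 and Bhlhe40 in place 22 (r = 0.75), an E-box repressor that CLOCK itself induces.

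For the pools as a whole, a clock level was taken as the mean of Per1, Per2, Per3, Dbp, Nr1d1, Nr1d2 and Tef, each minus its mean over the arrays. It is a description, with no test. It was lowest in sham at 8 weeks replicate 3 (-0.68), DMM at 16 weeks replicate 2 (-0.62) and time 0 replicate 1 (-0.43). It was highest in DMM at 2 weeks replicate 2 (0.38), DMM at 2 weeks replicate 3 (0.37) and sham at 4 weeks replicate 1 (0.37). The level of Arntl, Npas2 and Clock taken the same way was above 0 in the 3 lowest pools (0.22, 0.28 and 0.55), while in the highest it was 0.43, 0.12 and -0.42. In sham joints at 8 weeks the clock level was 0.19, -0.11 and -0.68 and in DMM joints at 16 weeks 0.26, -0.62 and -0.07, so pools of 1 group lay on both sides of the overall mean. It was above 0 in all pools at 2 weeks, sham and DMM, and below 0 in all 3 sham pools at 16 weeks.

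Measures of tissue mixture and RNA were set beside Dbp over the same 26 pools (6 relations, permutation p adjusted over them). For the muscle marker mean the relation was near 0 (r = 0.02, rho = 0.12, adjusted permutation p = 0.919 and 0.565). For the chondrocyte mean r was 0.33 and rho 0.38 (adjusted permutation p = 0.144 and 0.105) over the pools and turned to -0.48 and -0.40 within groups (0.559 and 0.305). The values over the pools were, for the adipocyte mean -0.25 and -0.17 (0.256 and 0.487), and, for the difference of the 3′ and 5′ Gapdh control probe sets, a sign of RNA integrity, 0.34 and 0.24 (0.144 and 0.341). A list of 9 genes that respond to glucocorticoids, hormones that themselves follow the day and stress, rose with Dbp (r = 0.60, rho = 0.67, adjusted permutation p = 0.0063 and 0.0024; 0.54 without the 2 farthest pools). Within groups its r was 0.24 (adjusted permutation p = 0.581). For the mean of 10 immediate early genes r was 0.45 and rho 0.44 (0.0602 and 0.0717), and -0.17 within groups (0.581). The part of the hour of collection in any of these relations was not tested.

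Whether DMM surgery changed the clock genes was asked against sham joints of the same week. At 2 weeks 0 of the 9 genes tested were called, where 2.49% of all probe sets were. At 4 weeks 1 of 9 was called, Clock, where 19.1% of all probe sets were. At 8 and 16 weeks 0 of 9 were called, where 0.00445% and 0.0623% of all probe sets were. Across these 4 comparisons, limma gave an unadjusted p under 0.05 for 1 of 9 genes at 4 weeks and for 0 in the other weeks. Of all 22489 probe sets it gave 4080, 7746, 2729 and 1659 at 2, 4, 8 and 16 weeks. The median log2 ratio of the 9 genes was 0.05, -0.09, 0.18 and 0.11 at 2, 4, 8 and 16 weeks, and that of all probe sets tested -0.02, -0.01, 0.01 and 0.00.

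At 4 weeks Clock stood at 9.30 ± 0.34 in DMM and 8.59 ± 0.17 in sham joints (SD, n = 3 pools each), higher by 0.71 ± 0.17 (limma, adjusted p = 0.0072). Each of the 3 DMM pools lay above the 3 sham pools. Its other 2 tested probe sets were called as well, with differences of 0.55 ± 0.10 (adjusted p = 0.00117) and 0.41 ± 0.10 (adjusted p = 0.00981). Without DMM at 4 weeks replicate 2 the difference was 0.58 and its adjusted p 0.0542, and without each of the other 5 pools the call held. In the same pools the mean of 7 synovial fibroblast and tendon markers was 12.03 to 12.53 in DMM and 11.41 to 11.77 in sham joints, with 3 of 7 called higher, where 12.4% of all probe sets were. The mean of 10 immediate early genes was 9.45 to 9.74 and 9.04 to 9.22. Of the 8 tested, 6 were called higher, among them Fos (1.29), Junb (0.68) and Egr1 (0.65). For 9 chondrocyte markers the means were 11.46 to 12.12 and 11.01 to 11.39, with 1 of 9 called, and for 10 muscle markers 10.97 to 12.09 and 12.40 to 12.50, with 0 called. With the muscle mean as a covariate Clock was still called. The muscle means of the DMM and sham pools did not overlap, so this fit cannot fully separate muscle content from surgery. The part of the other mixtures in the difference was not tested.

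At 2 weeks Clock was 9.36 ± 0.10 in DMM joints (n = 2) and 8.98 ± 0.22 in sham joints, a difference of 0.38 ± 0.19 (limma, adjusted p = 0.291). At 8 weeks the difference was -0.27 ± 0.17 (limma, adjusted p = 0.51) and at 16 weeks 0.33 ± 0.17 (limma, adjusted p = 0.706). From 4 to 8 weeks the DMM effect on Clock changed by -0.98 ± 0.24 (limma interaction, adjusted p = 0.047), 1 of 9 clock genes called where 1.59% of all probe sets were. For the other 2 tested probe sets of Clock this change was -0.52 (adjusted p = 0.0527) and -0.35 (adjusted p = 0.135). At 8 weeks the first of them read 8.58 to 8.65 in DMM and 8.47 to 8.65 in sham pools. The second read 8.66 to 8.80 and 8.59 to 8.77. The lower DMM value at 8 weeks was thus not seen on these 2 probe sets. In the test of any change of the DMM effect over the 4 weeks, 0 of 9 genes and 0% of all probe sets were called, with 1 of 9 and 4161 of 22489 at an unadjusted p under 0.05. Clock had an adjusted p of 0.162 in it. The interaction of 8 against 4 weeks was lost without any 1 of 9 of the 12 pools it involves, with a lowest size of -0.85 and a highest of -1.17.

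For the E-box driven genes the comparison with sham was wide. The log2 ratio of Dbp was 0.36 at 2 weeks (95% interval -0.75 to 1.46), -0.11 at 4 weeks (-1.10 to 0.88), 0.44 at 8 weeks (-0.55 to 1.43) and 0.37 at 16 weeks (-0.62 to 1.36). An increase of Dbp by 1 log2 unit thus lay inside the interval at 2, 8 and 16 weeks, and a decrease by 1 at 4 weeks. Nr1d2 was higher in DMM joints by 0.44, 0.33, 0.32 and 0.21 at the 4 weeks, with adjusted p between 0.370 and 0.947 in limma. At 4 weeks its DMM pools (11.36 to 11.46) lay above its sham pools (10.89 to 11.16). Pools of DMM and sham did not overlap for 5, 2, 0 and 1 of the 9 genes at 2, 4, 8 and 16 weeks. The share of all probe sets for which this held was not counted. Per1, Per2, Per3, Tef, Nr1d1 and Cry1 had ratios between -0.31 and 0.27 in the 4 weeks, and none passed the test. Cry2, which was not tested, was higher in DMM joints by 0.13 to 0.22.

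**Figure D5:**
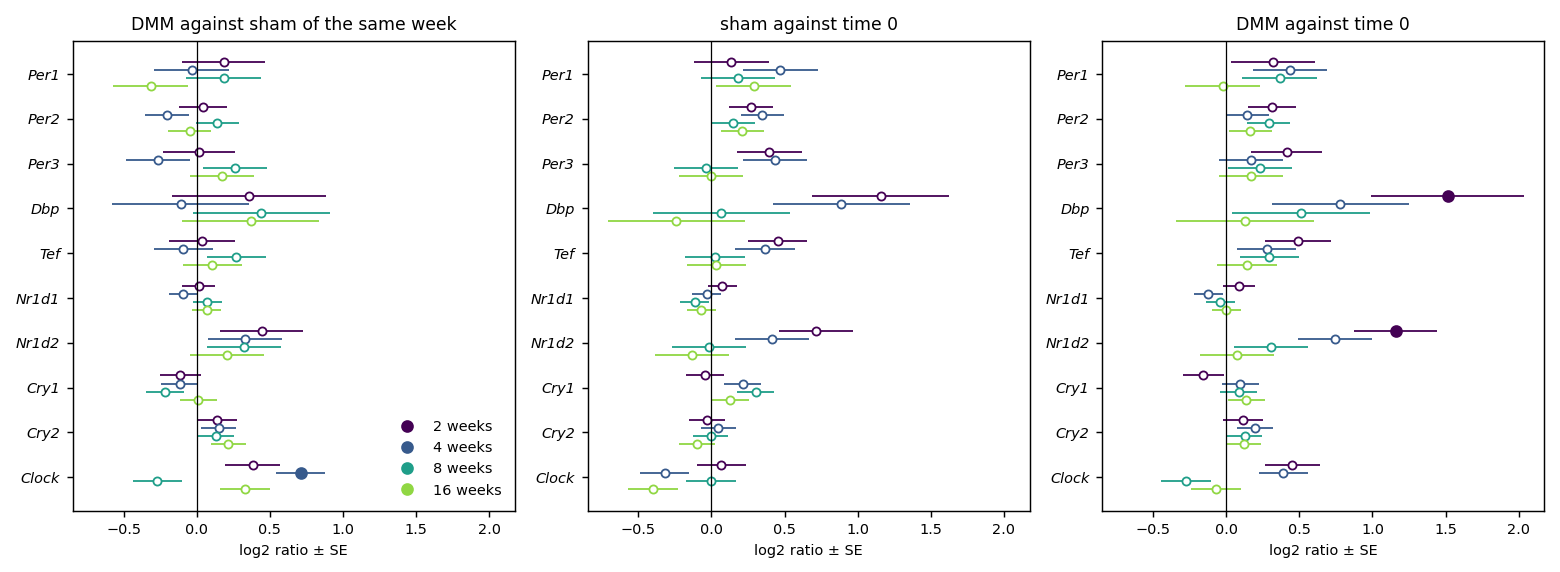
Log2 ratio ± SE from limma (horizontal axes) of the 10 clock genes (rows) for DMM against sham of the same week, sham against time 0 and DMM against time 0, coloured by week. Filled points are called at an adjusted p under 0.05: Clock at 4 weeks in the first panel, Dbp and Nr1d2 at 2 weeks in the third, and none in the second.

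Sham joints were compared with time 0 to follow the operation and the age of the mice. In this comparison 0 of 9 genes were called at 2, 4, 8 and 16 weeks, where 1.66%, 1.22%, 0.889% and 5.81% of all probe sets were. Of all 22489 probe sets, 4003, 3456, 3584 and 4672 reached an unadjusted p under 0.05 in limma at 2, 4, 8 and 16 weeks. Of the 9 clock genes, 3 reached it at 2 weeks and 1 at each other week. At 2 weeks these were Dbp (1.16 ± 0.47), Nr1d2 (0.72 ± 0.25) and Tef (0.45 ± 0.20), with adjusted p of 0.202, 0.144 and 0.25. All 3 sham pools lay above the 3 time 0 pools for each of them, and 4 of the 9 genes had pools that did not overlap. The share of all probe sets with such pools was not counted, so this adds nothing to the test. At 16 weeks the gene was Clock, at -0.40 ± 0.17 (adjusted p = 0.179), with all 3 sham pools below those of time 0. Pools did not overlap for 2 of the 9 genes in that week.

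DMM joints were also set against time 0, a comparison that shares the time 0 pools with the previous one. At 2 weeks 2 of 9 genes were called, both higher, where 29.6% of all probe sets were called. At 4, 8 and 16 weeks 0 of 9 were called, where 8.18%, 0.743% and 1.73% of all probe sets were. At an unadjusted p under 0.05 limma gave 4 of the 9 genes at 2 weeks, 2 at 4 weeks and 0 later. Of all 22489 probe sets it gave 9048, 5088, 2715 and 2963 at 2, 4, 8 and 16 weeks. The 2 called genes were Nr1d2 and Dbp.

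Nr1d2 rose from 10.65 ± 0.33 at time 0 to 11.81 ± 0.10 in DMM joints at 2 weeks, by 1.16 ± 0.28 or 2.23-fold (limma, adjusted p = 0.00443). The call held without each of the 5 pools, with differences from 1.00 to 1.33. Dbp rose from 9.90 ± 0.66 to 11.41 ± 0.13, by 1.51 ± 0.52 or 2.86-fold (limma, adjusted p = 0.0346). Both DMM pools lay above all 3 time 0 pools for both genes, and pools did not overlap for 5 of the 9 genes. The call of Dbp was lost without time 0 replicate 1 (1.18, adjusted p = 0.125), time 0 replicate 2 (1.52, adjusted p = 0.0736), DMM replicate 2 (1.43, adjusted p = 0.147) or DMM replicate 3 (1.60, adjusted p = 0.104). It was also lost with the Gapdh difference as a covariate (1.24, adjusted p = 0.124), on its second probe set (1.12, adjusted p = 0.0669), with array weights (1.28, adjusted p = 0.0768) and with no filter on brightness (1.51, adjusted p = 0.0501). The Gapdh difference was 0.49 and 0.28 in the 2 DMM pools and 0.21, 0.21 and 0.28 at time 0.

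At the same 2 weeks other groups of genes differed from time 0, in a comparison in which 14.4% of all probe sets were called higher and 15.2% lower. The mean of the synovial fibroblast and tendon markers was 12.70 to 12.81 in DMM joints and 11.30 to 11.56 at time 0, with 7 of 7 called higher. The adipocyte marker mean was 9.94 to 10.01 against 10.88 to 11.26, with 4 of 4 tested called lower. The mean of the 9 glucocorticoid responsive genes was 11.60 to 11.72 against 10.69 to 11.26, with 5 of 9 called higher, led by the metallothioneins Mt2 (1.86) and Mt1 (1.20) and the kinase gene Sgk1 (1.15). Of the 8 immediate early genes tested, 5 were called higher. The part of these in the rise of Nr1d2 and Dbp was not tested.

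Between successive sham weeks 0 of 9 clock genes were called, for 4 against 2 weeks (11.1% of all probe sets called), 8 against 4 weeks (0%) and 16 against 8 weeks (0.00889%). For 8 against 4 weeks limma gave 0 of all probe sets after adjustment and 2488 at an unadjusted p under 0.05, among them 1 of the 9 clock genes, Per3 (-0.47 ± 0.22). Asked over all 9 groups at once, 2 of 9 genes differed, Clock (limma F, adjusted p = 0.00421) and Nr1d2 (adjusted p = 0.00624), where 43.4% of all probe sets did. For Dbp the adjusted p was 0.0619.

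Of 22 other genes of the clock pathway, 20 had a probe set of their own and 16 were tested. At 4 weeks 3 of 16 were called against sham, all higher after DMM, where 19.1% of all probe sets were called and 12.4% were called higher. In the remaining weeks 0 were. The 3 were Rora (0.76 ± 0.16, adjusted p = 0.00328), a receptor that activates Arntl, Bhlhe40 (0.57 ± 0.14, adjusted p = 0.00832), and Csnk1e (0.47 ± 0.07, adjusted p = 0.000763), a kinase that marks PER proteins for degradation. Arntl differed by 0.23 ± 0.14 (adjusted p = 0.251), Nfil3 by 0.31 ± 0.21 (adjusted p = 0.302) and Hlf by 0.01 ± 0.16 (adjusted p = 0.963). Npas2, not tested, differed by 0.85. All of these tests were made in limma.

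In sham joints Bhlhe40 was higher than at time 0 at 2 weeks (0.57 ± 0.14, limma, adjusted p = 0.0435), and Arntl was lower at 16 weeks (-0.47 ± 0.14, limma, adjusted p = 0.0461). The pools of Arntl read 9.22, 9.30 and 8.89 at time 0, and 8.65, 8.67 and 8.68 in sham joints at 16 weeks. All 3 sham pools thus lay below time 0. In DMM joints at 2 weeks 7 of 16 differed from time 0, 4 higher and 3 lower, where 29.6% of all probe sets were called. Arntl fell by 0.64 ± 0.15 (limma, adjusted p = 0.00382), to 8.60 and 8.39, while Bhlhe40 rose by 1.11, Rora by 1.01 and Hlf by 0.50. Ciart, a repressor of CLOCK and ARNTL, was not tested and lay between 7.54 and 7.87 in all pools.

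The study's steps on ratios and on likeness of replicates were also applied to the brightest probe set of the 10 genes, with the replicate numbers taken as time courses. The paper states that pools were paired at random into 3 time courses. The labels do not say whether the replicate numbers are these pairs. Its first step, on detection p-values, was not applied, since the values used here hold none. A gene had to have an absolute log ratio to its control pools of at least 0.5 at 1 or more weeks in each of 3 replicates, and its replicates then had to be alike in 2 of 3 comparisons, by correlation (0.7 or more) and by distance (0.6 or less for DMM, 0.81 or less for sham). In the DMM time course Dbp and Nr1d2 passed the ratio in all 3 replicates, Clock the correlation and 4 genes the distance. In the sham time course these numbers were 1, 5 and 7. Of the 10 genes, 0 passed all of the steps applied in either time course. For Dbp in the DMM time course the distances were 2.34, 0.84 and 2.12, and its replicates 1 and 2 correlated with r = -0.52.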

How the data were processed

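RNA from 26 pools of 3 mice was measured on Affymetrix Mouse Genome 430 2.0 arrays. The deposited values are log2 signals per probe set, made comparable over arrays by the authors with systematic variation normalization (SVN). They were used as deposited. They hold no detection p-values and no scan batches, and the number of arrays limits the precision. Control probe sets (64) were left out. Probe sets with a mean above 7.93 (22489) went into a linear model in limma 3.58.1 (R 4.3.3) that had a mean for each of 9 groups (17 residual degrees of freedom) and Benjamini-Hochberg adjustment. With 3 pools against 3 the smallest exact p is 0.1, and with 2 against 3 it is 0.2. The share of all probe sets whose pools did not overlap between 2 groups was not counted in any comparison. Replicates are pools of different mice. Permutations of correlations numbered 100000, drawn within groups for deviations from group means. On simulated data for DMM against sham at 4 weeks (22489 probe sets), 75 of 100 changes of size 0.5 and 92 of 100 of size 1 were recovered, with 9 false calls. The changed probe sets were drawn at random from those tested, whose median residual SD was 0.116. Dbp (0.630), Per1 (0.341) and Nr1d2 (0.339) spread far more, so this recovery does not hold for them. Nothing else was changed in the simulation, whereas 19.1% of all probe sets were called in the measured comparison.

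Probe sets were named from the array's annotation: 34958 carry 1 symbol, 932 several and 9211 none. The clock genes and all gene lists were chosen with earlier results of these data known, so no p is given for a list. All 10 clock genes are named. Of the 22 other pathway genes, Arntl, Npas2, Nfil3, Ciart and Hlf are named always and others where called against sham or in sham against time 0. Of the glucocorticoid and immediate early lists, up to 3 genes with the largest ratio are named, and for likeness to Dbp the 5 highest and 5 lowest correlations outside the 10 genes. Pools with the most Dbp were counted after the data were seen. Alternatives covered the brightness filter, quantile normalization, array weights, the spread model, the groups fitted, the probe set, a replicate block, a muscle or Gapdh covariate and leaving out each pool. RefSeq promoter windows were matched by symbol.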

Additional observations from a re-analysis of the deposited data

Results flagged for a closer look

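The DMM effect on Clock differed between 2 time points in a test of the difference itself. On its brightest probe set, DMM minus sham was 0.71 ± 0.17 at 4 weeks and -0.27 ± 0.17 at 8 weeks. The change was -0.980172 (log2) or -0.98 ± 0.24 (limma interaction, adjusted p = 0.047). At 4 weeks the 3 DMM pools (8.91 to 9.55) lay above the 3 sham pools (8.46 to 8.78), and at 8 weeks the DMM pools (8.55 to 8.69) lay within the range of the sham pools (8.53 to 9.12). Its adjusted p was 0.061 with no filter on brightness, 0.0828 when only the 4 groups were fitted and 0.093 with the Gapdh difference as a covariate, and the call was lost without any 1 of 9 of the 12 pools. On the second brightest probe set of Clock the change was -0.35 (adjusted p = 0.135). There the DMM pools at 8 weeks (8.66 to 8.80) were not lower than the sham pools (8.59 to 8.77). With groups of 2 or 3 pools, single pools far from their group were not tested.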

How the results depend on the processing

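The count of clock genes called for DMM against sham was 0 at 2, 8 and 16 weeks under every alternative, and 1 at 4 weeks under every alternative except without DMM replicate 2 (0 to 1 with 1 pool left out). Array weights gave 1 gene for sham against time 0 at 2 weeks and 1 at 8 weeks, 4 for DMM against time 0 at 4 weeks, 2 for sham at 4 against 2 weeks, 1 for sham at 16 against 8 weeks, 5 for any difference among the 9 groups and 1 for the DMM effect changing over the weeks. For DMM at 2 weeks against time 0 the count was 1 with no filter and 1 with the Gapdh covariate, and 1 to 3 with 1 pool left out. The second brightest probe set gave 1 for sham at 4 against 2 weeks. With 1 pool left out the counts ran from 0 to 1 for DMM at 4 weeks against time 0, from 0 to 1 for sham at 4 against 2 weeks (1 without sham at 2 weeks replicate 1) and from 2 to 4 for any difference (4 without sham at 8 weeks replicate 1). The cause was not tested. The relation of Dbp and Cry1 passed an unadjusted p of 0.05 without DMM at 16 weeks replicate 2 (r = -0.46) and on the second probe set of Dbp (r = -0.41). The replicate block was run although the labels do not state that equal numbers pair the pools. Correlations of same-numbered DMM and sham deviations from group means ran from -0.19 to 0.56. At 8 weeks they were 0.48, 0.32 and 0.56, against -0.52 to 0.05 for pools of different numbers. Deviations from a group mean sum to 0, so high values for same-numbered pools force low ones for the others. In the other weeks same-numbered pools gave -0.19 to 0.33. Whether same-numbered pools were collected together was not tested. With the replicate block Clock at 4 weeks was 0.71 (adjusted p = 0.00396) and no count of called genes changed. No called difference of a clock gene and no correlation with Dbp changed direction under any alternative. The direction of differences that were not called was not followed over the alternatives. That of Clock at 8 weeks was not the same on its other probe sets, as given above.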
